A study of Mus musculus with 15 samples.

Results

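Hepatocyte lineage transcription factors were followed in 15 mouse liver tumors. The set holds 8 genes, namely Hnf4a, Foxa1, Foxa2, Foxa3, Cebpa, Cebpb, Prox1 and Creb3l3. They were found as the array probes that are not controls and carry one of these gene names, which gave 9 of 55681 probes, 1 for each gene except Foxa2, which had 2. Whole tumor tissue came from 3 groups of 5 tumors. Hepatocellular carcinoma (HCC) was taken from both p53f/f and p53LKO mice, and intrahepatic cholangiocarcinoma (ICC, a cancer with features of bile duct cells) from p53LKO mice alone. The p53f/f mice carry floxed, undeleted Trp53 alleles. In the p53LKO mice Trp53, the gene of the tumor suppressor p53, is deleted in the liver. The Cre line behind that deletion and the age at collection of each mouse on the arrays are not given in the sources used here. Mice of the study were killed at different ages. The paper reports that tumors formed later in p53f/f mice. Few of these mice had tumors at the age by which all p53LKO males did. The p53f/f HCC are therefore likely to come mostly from older mice. Age cannot be told apart from genotype in either comparison with p53f/f HCC, and its part was not tested. All mice were males on a C57/BL6J background, and all received the liver toxin carbon tetrachloride (CCl4) at 0.5 µl per g of body weight by injection over 16 weeks. Untreated and non-tumor liver were not analysed here. Mouse 3717 gave 2 of the 5 p53f/f HCC, which the tests treat as separate samples. Of the p53LKO mice, 4 gave both an HCC and an ICC.

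These proteins form the network that sets and maintains the hepatocyte program. Hnf4a is a nuclear receptor that occupies the regulatory regions of many genes for apolipoproteins, clotting factors and metabolic enzymes. The Foxa proteins are forkhead pioneer factors that bind in closed chromatin and prepare the liver for differentiation in the embryo. C/EBP alpha (Cebpa) drives metabolic genes and restrains growth, while C/EBP beta (Cebpb) serves the acute phase response and regeneration. Prox1 is a homeodomain protein needed for hepatoblast migration and a corepressor of Hnf4a, and Creb3l3 is a membrane-bound factor of the hepatocyte's endoplasmic reticulum that is released by cleavage and acts on lipid and acute phase genes.

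Each level below is the log2 of a probe's processed signal minus the log2 of the 75th percentile of its array, so that a level of 0 equals that percentile and a difference of 1 is a 2-fold change. Levels of different probes cannot be set against each other. Within a group the tumors are given in a fixed order that does not match tumors between groups. All 9 probes were well above background on all 15 arrays and none was saturated. The targeted gene checked the genotype labels: the Trp53 probe read −1.27 to −0.68 in p53f/f HCC, −3.86 to −2.75 in p53LKO HCC and −4.19 to −2.31 in p53LKO ICC. It exceeded background on 5 of 5, 3 of 5 and 1 of 5 arrays. Whether this probe lies in the deleted part is not given in the sources used here. The arrays sat in 2 rows of 2 slides. All p53f/f HCC arrays lay in the upper rows (55.1 to 70.1% of probes well above background), all p53LKO ICC arrays in the lower rows (42.5 to 47%), and the p53LKO HCC arrays were split, 3 upper and 2 lower (37 to 62.1%).

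The DNA before the start sites of 3 members is shown because these genes moved in different ways: Hnf4a had the largest fall of the 8 from p53LKO HCC to p53LKO ICC, Foxa1 had the one rise in that comparison, and Cebpb was the one member past both thresholds between the HCC groups. The sequences are RefSeq's on build GRCm38.p6, the 250 bases before a start site, 5′ to 3′ on the strand of the gene. RefSeq gave 13 start sites for the 8 members. Capitals mark matches, on either strand, to any of 5 motifs that were searched. The forkhead element was searched as TGTTTAC. The core of a cyclic AMP response element was searched as TGACG and the C/EBP element as TTGCNNAA. An HNF4 direct repeat was searched as CAAAGTCCA, and the TATA box as TATAAA. Hnf4a has an upstream start and a downstream start, of which the downstream one is the main start in adult liver.
Hnf4a, upstream start, chr2:163506607-163506856, + strand: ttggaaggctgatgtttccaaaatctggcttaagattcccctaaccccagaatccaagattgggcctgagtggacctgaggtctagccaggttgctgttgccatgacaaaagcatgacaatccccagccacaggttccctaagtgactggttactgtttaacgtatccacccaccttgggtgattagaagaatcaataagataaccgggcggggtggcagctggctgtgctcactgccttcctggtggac
Hnf4a, downstream start, chr2:163546905-163547154, + strand: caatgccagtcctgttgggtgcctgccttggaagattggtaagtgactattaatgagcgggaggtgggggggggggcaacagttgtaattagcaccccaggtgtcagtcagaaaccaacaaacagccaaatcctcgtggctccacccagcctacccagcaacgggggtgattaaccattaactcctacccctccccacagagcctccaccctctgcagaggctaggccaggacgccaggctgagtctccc
Foxa1, chr12:57546112-57546361, − strand: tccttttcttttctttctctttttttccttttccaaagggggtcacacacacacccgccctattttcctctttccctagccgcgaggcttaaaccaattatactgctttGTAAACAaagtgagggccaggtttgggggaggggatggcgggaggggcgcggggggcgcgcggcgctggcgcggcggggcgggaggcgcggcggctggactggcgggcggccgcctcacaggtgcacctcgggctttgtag
Cebpb, chr2:167688665-167688914, + strand: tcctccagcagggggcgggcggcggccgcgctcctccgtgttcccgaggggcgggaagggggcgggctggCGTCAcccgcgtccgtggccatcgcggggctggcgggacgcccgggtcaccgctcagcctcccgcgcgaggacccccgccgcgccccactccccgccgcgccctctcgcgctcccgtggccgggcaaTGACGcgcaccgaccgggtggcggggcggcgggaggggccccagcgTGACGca
Neither Hnf4a promoter held any of the 5 motifs in this window. The Foxa1 promoter held the forkhead letters as GTAAACA at 141 bases before its own start, a match found in 3.17% of all 32851 RefSeq promoters over the same window, and the Cebpb promoter held TGACG at 180, 53 and 7 bases before the start, a motif that 17.8% of promoters held at least once. The remaining shares were 9.56% for TTGCNNAA, 0.384% for CAAAGTCCA and 12.4% for the TATA box. This last motif stood 36 bases before the start of Foxa3 and 30 bases before that of Cebpa, and on the opposite strand 34 bases before a start of Prox1 and 208 bases before a start of Foxa2. TGACG also stood 239 bases before a start of Creb3l3. A match is a string of letters and shows no binding. The 1 Hnf4a probe does not tell transcripts of the 2 starts apart.

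Between the tumor types of p53LKO mice, 5 of the 8 factors changed by more than 2-fold at an adjusted p under 0.05 (limma, Benjamini-Hochberg over all probes tested). Hnf4a, Foxa3, Creb3l3 and Prox1 were lower in ICC and Foxa1 was higher. Over all 32669 probes tested, 26.4% passed the same rule, 12.9% of them higher and 13.4% lower as shares of all tested. By adjusted p alone 7 of 8 passed, against 45.2% of all probes, and the groups did not overlap for 6 of 8, against 28.6%. Between the HCC groups 1 of 8 factors passed, Cebpb, which was higher in p53LKO HCC, where 19.6% of 36082 probes passed and 3.64% passed as higher. Cebpb was also the 1 factor under an adjusted p of 0.05 alone (32.9% of all probes) and the 1 factor whose HCC groups did not overlap (22.5%). ICC of p53LKO mice against HCC of p53f/f mice gave 5 of 8, all lower, against 19.4% of 35698 probes and 12% that passed as lower, with 7.43% higher. The same 5 had an adjusted p under 0.05 (34% of all probes) and no overlap (24.2%). Under spike-in scaling 2 of 8 passed, Foxa3 as lower and Foxa1 as higher, while Hnf4a (−1.01), Cebpa (−0.65), Prox1 (−0.62) and Creb3l3 (−0.97) did not, and over all probes 7348 were higher and 926 lower. The last comparison changes genotype and tumor type together and shares its arrays with both others. In it, and in no other, each group also lies in its own row of the slides, so row and group cannot be told apart.

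**Figure D1:**
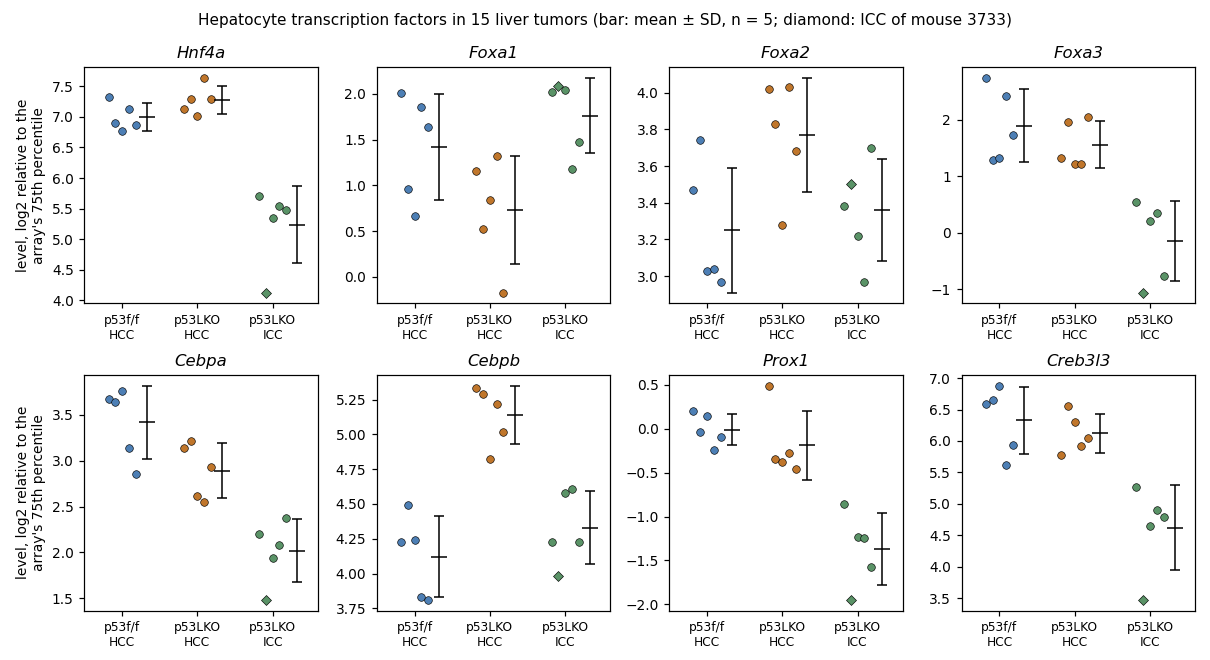
Level of each of the 8 transcription factors on each of the 15 arrays (y axis, log2 against the 75th percentile of the array, a separate scale in each panel) in 5 p53f/f HCC, 5 p53LKO HCC and 5 p53LKO ICC (x axis); points are tumors, the bar is mean ± SD, and the diamond is the ICC of mouse 3733. All 5 ICC lie below all 10 HCC for Hnf4a, Foxa3, Cebpa, Prox1 and Creb3l3, and all 5 p53LKO HCC lie above the other 10 tumors for Cebpb.

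Hnf4a is the central nuclear receptor of the set. Its levels were 7.33, 6.90, 6.77, 7.12 and 6.87 in the p53f/f HCC and 7.12, 7.29, 7.02, 7.63 and 7.29 in the p53LKO HCC. In the p53LKO ICC they were 5.70, 4.13, 5.34, 5.55 and 5.47. Every ICC lay below every HCC, and the ICC of mouse 3733, at 4.13, stood apart below the next at 5.34. The mean was 5.24 ± 0.63 (SD, n = 5) in ICC against 7.27 ± 0.23 in p53LKO HCC, a fall of 2.03 on the log2 scale, or 4.09-fold (SE 0.28, 95% interval −2.66 to −1.41). The adjusted p was 0.000396 by limma, and an exact two-sided permutation test gave 0.00794, the smallest p that 5 arrays against 5 allow. The difference was −1.75 without the ICC of mouse 3733. Against p53f/f HCC the difference was −1.76 (adjusted p = 0.00141 by limma). The 2 HCC groups differed by 0.27 (95% interval −0.12 to 0.65, adjusted p = 0.259 by limma) and overlapped. That difference was 0.18 to 0.35 when 1 array was left out and 0.02 to 1.01 over the 14 other alternatives. Such arrays measure whole tumors, in which fewer cells of a type and less RNA per cell cannot be told apart.

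The forkhead factors went different ways. Foxa3, the member of the family most abundant in adult liver, read 2.74, 1.29, 1.33, 2.43 and 1.73 in the p53f/f HCC. The p53LKO HCC read 1.33, 1.97, 1.22, 1.21 and 2.05. In ICC it read 0.54, −1.06, 0.21, 0.35 and −0.76. No ICC reached the lowest HCC, while the HCC groups lay over each other. Foxa3 was 3.25-fold lower in ICC than in p53LKO HCC (log2 −1.70, SE 0.34, adjusted p = 0.0027 by limma) and 4.13-fold lower than in p53f/f HCC (adjusted p = 0.00322 by limma). The difference between the HCC groups was −0.35 (95% interval −1.06 to 0.36, adjusted p = 0.428 by limma), and −0.50 to −0.14 when 1 array was left out.

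Foxa1, which acts together with Foxa2 in early liver development, was the one factor higher in ICC than in p53LKO HCC. Its levels were 2.02, 2.09, 2.04, 1.18 and 1.47 in ICC and 1.16, 0.52, 0.84, 1.32 and −0.17 in p53LKO HCC. The ICC of mouse 3977, at 1.18, lay below the highest p53LKO HCC, and the other 4 ICC lay above all of them. The difference was 1.02 (2.03-fold, SE 0.30, adjusted p = 0.0181 by limma, exact permutation p = 0.0159). It sits at the 2-fold limit: it was 0.94 without the ICC of mouse 3733, 0.94 with the mouse as a block and 0.92 with the row of the slide as a block, each under 2-fold, and with the row block the adjusted p by limma was 0.123. In p53f/f HCC Foxa1 read 2.01, 0.96, 0.67, 1.85 and 1.64, values that overlap with both other groups. The level in p53LKO HCC minus that in p53f/f HCC was −0.69 (95% interval −1.44 to 0.06, adjusted p = 0.14 by limma), and that in ICC minus p53f/f HCC was 0.33 (95% interval −0.33 to 0.99). The latter was 0.15 to 0.48 when 1 array was left out.

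Foxa2 did not pass in any comparison. Its brighter probe read 3.47, 3.74, 3.03, 3.04 and 2.97 in p53f/f HCC, 4.02, 3.83, 3.28, 4.03 and 3.68 in the p53LKO HCC, and 3.38, 3.50, 3.22, 2.97 and 3.70 in ICC. The 3 groups overlapped. The difference between the HCC groups was 0.52 (95% interval 0.05 to 0.99, adjusted p = 0.0852 by limma, exact permutation p = 0.0476), and that between ICC and p53LKO HCC was −0.41 (95% interval −0.85 to 0.03, adjusted p = 0.116 by limma). Over the 12 alternatives other than leaving out 1 array, the latter ran from −0.57 to −0.02. The second Foxa2 probe, whose target on build mm9 (chr2:147868614-147868673) overlaps that of the first (chr2:147868669-147868728) by a few bases, gave 0.37 and −0.40 for the same comparisons. Under spike-in scaling the HCC difference of the brighter probe was 1.26 and passed, as did that of Hnf4a at 1.01.

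The C/EBP factors separated the tumors in different ways. Cebpb read 5.33, 5.29, 4.82, 5.22 and 5.02 in p53LKO HCC. The p53f/f HCC read 4.23, 4.49, 4.24, 3.83 and 3.81, and the ICC read 4.23, 3.98, 4.58, 4.61 and 4.23. Each p53LKO HCC was above each of the other 10 tumors, and the other groups overlapped. Cebpb was 2.02-fold higher in p53LKO HCC than in p53f/f HCC (log2 1.02, SE 0.19, 95% interval 0.61 to 1.43, adjusted p = 0.00213 by limma). The fold lies just over the limit: 5 of the 10 fits that leave out 1 array and 6 of the 14 other alternatives put it at 0.77 to 1.00, below 2-fold, with the adjusted p under 0.05 in all of them. Within the upper rows of the slides the difference was 0.90. ICC minus p53LKO HCC gave −0.81 (adjusted p = 0.0044 by limma), which is under 2-fold. That difference was −0.34 (adjusted p = 0.142 by limma) with quantile normalization and −0.44 (adjusted p = 0.0565 by limma) under the 75th percentile of probes above background on all arrays. ICC and p53f/f HCC differed by 0.21 (95% interval −0.23 to 0.64), and by 0.13 to 0.30 when 1 array was left out. Over the 11 other alternatives the difference was 0.13 to 0.96, with a lowest adjusted p of 0.0298 by limma.

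Cebpa, the metabolic C/EBP factor, was lowest in ICC. It read 3.67, 3.64, 3.76, 3.14 and 2.86 in p53f/f HCC, 3.14, 3.22, 2.62, 2.55 and 2.93 in the p53LKO HCC, and 2.20, 1.48, 1.94, 2.08 and 2.38 in ICC. The HCC groups overlapped, and all ICC lay below all HCC. Between ICC and p53f/f HCC the difference was −1.40 (2.64-fold, SE 0.24, adjusted p = 0.00173 by limma). Between ICC and p53LKO HCC it was −0.88 (95% interval −1.34 to −0.41, adjusted p = 0.00723 by limma), under 2-fold, and between the HCC groups −0.52 (95% interval −1.02 to −0.03, adjusted p = 0.0975 by limma). The difference between ICC and p53LKO HCC was −1.16, past 2-fold, with the row as a block. It was −0.51 (adjusted p = 0.0576 by limma) under the 75th percentile of probes above background on all arrays, and −0.86 (adjusted p = 0.0556 by limma) under spike-in scaling.

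Prox1 and Creb3l3 were lower in ICC, as Hnf4a was. Prox1 read 0.20, −0.04, 0.14, −0.24 and −0.09 in p53f/f HCC, 0.49, −0.35, −0.38, −0.28 and −0.46 in the p53LKO HCC, and −0.86, −1.95, −1.23, −1.25 and −1.58 in ICC. The p53LKO HCC of mouse 3976 was the highest of all 15 tumors, whereas the other 4 of its group lay below all p53f/f HCC. The HCC groups differed by −0.19 (95% interval −0.64 to 0.26, adjusted p = 0.508 by limma), and by −0.36 to −0.12 when 1 array was left out. Prox1 was 2.26-fold lower in ICC than in p53LKO HCC (log2 −1.18, SE 0.25, adjusted p = 0.0036 by limma) and 2.58-fold lower than in p53f/f HCC (adjusted p = 0.00113 by limma). The first difference was under 2-fold with normexp (−0.88) and under the 75th percentile of probes above background on all arrays (−0.81). Lymphatic endothelium also uses Prox1. Of its 6 markers 5 were on the array and 4 were tested, of which Pdpn, also a gene of fibroblasts, was higher in ICC than in p53LKO HCC (5.07) and Flt4 was lower (−2.17, a fit that leaves out spots marked as outliers on some arrays). The median of the tested markers was −0.95, and 2 were lower with the mouse as a block. The summed signal of 4 markers was 6.95 to 20.3 in ICC and 0.658 to 3.53 in all HCC. The part of these markers' cells in the Prox1 values was not tested.

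Creb3l3 read 6.58, 6.65, 6.88, 5.61 and 5.94 in p53f/f HCC, 5.77, 6.56, 6.30, 5.92 and 6.05 in the p53LKO HCC, and 5.27, 3.47, 4.65, 4.90 and 4.79 in ICC. All ICC were below all HCC, and the p53LKO HCC lay within the range of the p53f/f HCC. It was 2.83-fold lower in ICC than in p53LKO HCC (log2 −1.50, SE 0.31, adjusted p = 0.00333 by limma) and 3.29-fold lower than in p53f/f HCC (adjusted p = 0.00472 by limma). The HCC groups differed by −0.21 (95% interval −0.80 to 0.37), and by −0.39 to −0.08 when 1 array was left out.

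**Figure D2:**
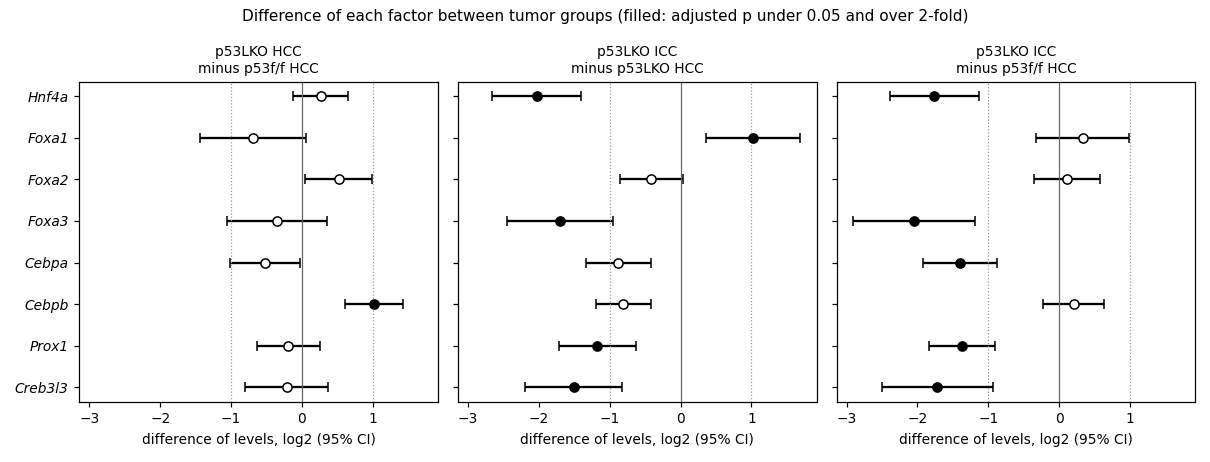
Difference of mean level (x axis, log2, with its 95% interval from limma) for each factor (y axis) in the 3 comparisons; filled points have an adjusted p under 0.05 and a fold above 2, and dotted lines mark 2-fold. Between the HCC groups 1 point is filled (Cebpb, 1.02) and 5 of the other 7 lie below 0. Those 5 turned positive under spike-in scaling, which moved the median of all probes from −0.12 to 0.62. Between ICC and p53LKO HCC 5 points are filled, from −2.03 for Hnf4a to 1.02 for Foxa1.

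Comparing both tumors of the same animal takes out differences between mice. In the 4 mice that gave both, ICC lay below HCC in 4 of 4 for Hnf4a (−3.50 to −1.32), Foxa3 (−2.73 to −0.68), Cebpa (−1.20 to −0.43), Cebpb (−1.24 to −0.59), Prox1 (−1.72 to −0.48) and Creb3l3 (−2.45 to −1.03). For these factors every ICC lay below every p53LKO HCC, so any pairing of the tumors would give 4 of 4. Foxa1 was higher in the ICC of 4 of 4 mice, by 0.77 to 1.18, and Foxa2 was lower in 3 of 4. Of the 4, mouse 3733 gave the largest fall of Hnf4a, Creb3l3 and Cebpb, mouse 3976 that of Cebpa and Prox1, and mouse 5283 that of Foxa3. Within the lower rows of the slides, where the 5 ICC can be set against 2 p53LKO HCC, the differences were −1.97 for Hnf4a, −1.79 for Foxa3, −1.55 for Creb3l3, −1.44 for Prox1, −1.16 for Cebpa, −0.99 for Cebpb and 0.92 for Foxa1. These are the same signs as over all 10 arrays, which the lack of overlap fixed in advance for all but Foxa1.

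**Figure D3:**
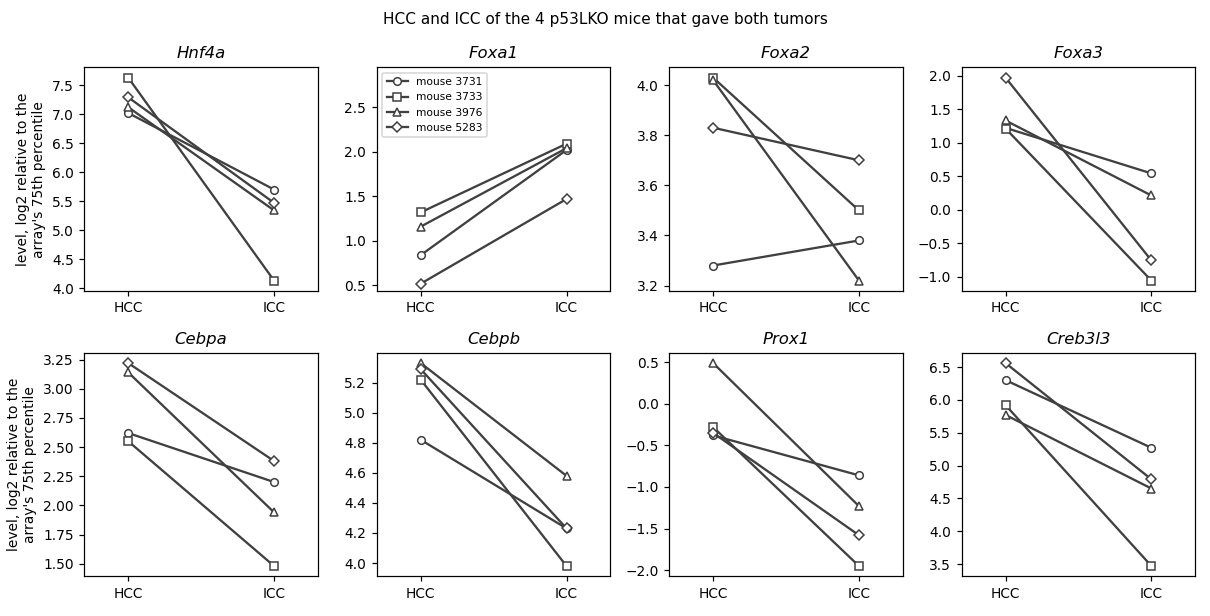
Level of each factor (y axis, log2 against the 75th percentile of the array, a separate scale in each panel) in the HCC and the ICC (x axis) of 4 p53LKO mice, each line 1 mouse. Lines fall in 4 of 4 mice for 6 factors whose HCC and ICC groups do not overlap, rise in 4 of 4 for Foxa1 (0.77 to 1.18) and are mixed for Foxa2.

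The ICC of mouse 3733 was the lowest of the 5 ICC for 6 of the 8 factors, Hnf4a, Foxa3, Cebpa, Cebpb, Prox1 and Creb3l3, and the highest for Foxa1. In the same array the summed signal of 9 hepatocyte markers was 946 times the 75th percentile, against 1430 to 2250 in the other 4 ICC, and that of 9 biliary markers was 151, against 75.1 to 120. Without this array Hnf4a, Foxa3, Prox1 and Creb3l3 still passed both thresholds between ICC and p53LKO HCC, at −1.75, −1.47, −1.03 and −1.22. Foxa1 did not pass.

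Genes that these factors are known to act on were taken as lists, chosen with earlier results of these data known, and each gene stands by its brightest probe. Of 9 known Hnf4a targets, 8 were lower in ICC than in p53LKO HCC and none was higher (median difference −1.88, against −0.17 over 16752 genes). They include Mttp, which loads lipid onto apolipoprotein B (−3.02), the clotting factor gene F12 (−2.40), the apolipoprotein gene Apoc3 (−2.34) and Otc of the urea cycle (−2.15). The bile acid enzyme gene Cyp8b1 did not pass (0.61, adjusted p = 0.663 by limma) and had SDs of 2.33 and 1.46. With the row as a block 3 of 9 passed as lower, with a median of −1.77. Between the HCC groups 1 target was lower (Apob, −1.20) and none higher, with a median of −0.58, against 0.07 over all genes. Under spike-in scaling none passed and the median was 0.16, against 0.8 over all genes. At a median of −0.82, against −0.18 over all genes, 3 of 9 were lower under the 75th percentile of probes above background on all arrays.

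Of 6 known Foxa targets 3 were lower in ICC than in p53LKO HCC, Afp (−4.66), Alb (−1.91) and Ttr (−1.73), with a list median of −1.62. With the row as a block 1 of 6 passed, at a median of −1.53. Afp, the fetal albumin relative, varied among HCC with SDs of 2.31 and 2.78. Of 6 known C/EBP alpha targets 3 were lower, the liver glycogen synthase gene Gys2 (−3.34), Alb again and the clotting factor gene F9 (−1.32), with a median of −1.49. Pck1, the gluconeogenic enzyme that stands in both lists, did not pass there (0.73, adjusted p = 0.512 by limma), and was lower in p53LKO HCC than in p53f/f HCC by 3.03 with no overlap. It was the one gene of either list to pass between the HCC groups.

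The 8 acute phase genes known as C/EBP beta targets moved apart. Between the HCC groups, where Cebpb was higher in p53LKO HCC, Saa3 (2.50) and the neutrophil and hepatocyte protein gene Lcn2 (1.34) were higher and none was lower, with a median of 0.71 against 0.07 over 17605 genes. Under spike-in scaling 4 of 8 were higher, at a median of 1.44 against 0.8 over all genes. Neutrophil markers S100a8 (1.84) and S100a9 (2.10) were higher in the same comparison, and 2 of 4 tested neutrophil markers passed, against 1 with the row as a block and 4 under spike-in scaling. Their summed signal was 18.1 to 69.3 in p53LKO HCC and 3.59 to 13.6 in p53f/f HCC. Their part in the Lcn2, Saa3 and Cebpb values was not tested. Between ICC and p53LKO HCC, Lcn2 (−2.76), Orm1 (−1.65), Orm2 (−1.42) and Hpx (−1.03) were lower and the serum amyloid genes Saa2 (2.15) and Saa1 (1.96), which are close copies of each other, were higher. Only 1 of 8 was lower without the ICC of mouse 3733, with quantile normalization, under the 75th percentile of probes above background on all arrays, and with the row or the mouse as a block, and 2 were higher except with the mouse as a block, where 1 was.

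Of 8 known Creb3l3 targets, 3 genes of lipid handling were lower in ICC than in p53LKO HCC: Apoa4 (−4.80), the lipid droplet protein gene Cidec (−3.48) and Apoc2 (−2.81). Hamp, which encodes the iron hormone hepcidin and which Creb3l3 induces under stress, was higher (3.12, adjusted p = 0.00755 by limma). With the row as a block the same number were lower and none higher. Fgf21 (0.44), Crp (−0.47), Apcs (−0.91) and Apoa5 (0.72) did not pass. Between the HCC groups Apoa5, which activates the clearance of triglycerides, was lower by 2.97 and no other passed, at a list median of −0.74. That median was 0.00 under spike-in scaling, against 0.8 over all genes. Under the 75th percentile of probes above background on all arrays 2 of 8 were lower, at a median of −0.99 against −0.18. Cyp7a1, the rate-limiting enzyme of bile acid synthesis that Prox1 restrains together with Hnf4a, did not pass in any comparison (1.70, adjusted p = 0.096 by limma between ICC and p53LKO HCC).

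**Figure D4:**
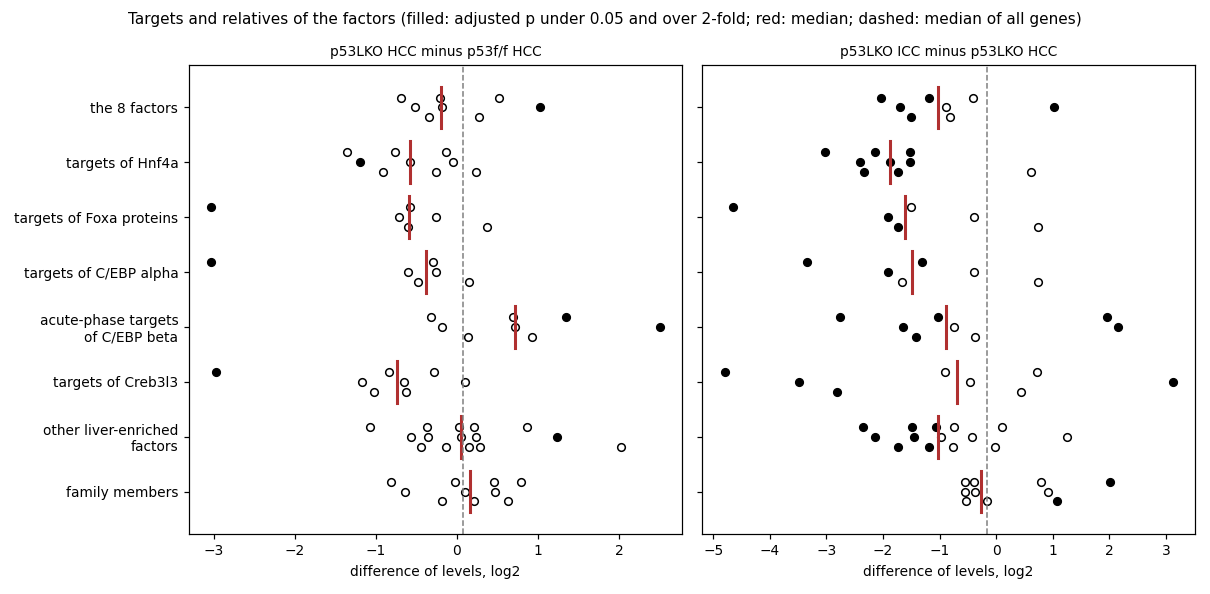
Difference of level (x axis, log2) of each tested gene of 8 lists (y axis) between the HCC groups and between ICC and p53LKO HCC; filled points have an adjusted p under 0.05 and a fold above 2, red bars are list medians and the dashed line is the median of all genes. In ICC against p53LKO HCC 8 of 9 Hnf4a targets are filled on the left of 0. Between the HCC groups list medians run from −0.74 to 0.71. Those of the Hnf4a, Foxa and C/EBP alpha lists, below 0 here, turned positive under spike-in scaling, which moved the median of all genes from 0.07 to 0.8.

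Other transcription factors enriched in liver were also followed. Of 15 such genes 14 were tested between ICC and p53LKO HCC, and 7 were lower and none higher (median −1.02): Mlxipl, the glucose-sensing factor ChREBP (−2.35), Nr0b2, the corepressor SHP (−2.14), Klf15 (−1.73), the bile acid receptor gene Nr1h4 (−1.48), Nr5a2 (−1.45), Atf5 (−1.18) and Hhex (−1.07). Gata6 fell by 0.97 (adjusted p = 0.00183 by limma), just under 2-fold. Gata4 (0.11) and Onecut2 (−0.02) did not pass. The list median was −0.65, and 5 of 14 were lower, under the 75th percentile of probes above background on all arrays. Between the HCC groups Zhx2 (1.23) was the 1 gene of the list that passed, with 4 higher under spike-in scaling, and 1 lower and none higher under the 75th percentile of probes above background on all arrays. Zhx2 was dim, clearly over background on 0 of 5 p53f/f HCC and 3 of 5 p53LKO HCC arrays. Gata6 was higher in p53LKO HCC than in p53f/f HCC by 0.87 (adjusted p = 0.00111 by limma), under 2-fold and without overlap. Its difference between ICC and p53f/f HCC was −0.10.

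None of the close relatives of the 8 factors passed as lower in ICC. Of 11 family members 10 were tested between ICC and p53LKO HCC, and 2 were higher and none lower (median −0.27). With normexp 0 of 10 passed, 1 was higher with the mouse as a block or without the ICC of mouse 3733, and 4 were higher under the 75th percentile of probes above background on all arrays. Hnf4g and Creb3l4, the 2 that passed, were dim, so that their differences rest on values near background: Hnf4g, the paralog of Hnf4a (2.01, adjusted p = 0.0014 by limma), exceeded background clearly on 2 of 5 p53LKO HCC and 3 of 5 ICC arrays, and Creb3l4 (1.08) on 4 of 5 and 1 of 5. Cebpd, the C/EBP gene of the acute phase, read 2.68 ± 0.11 (SD, n = 5) in p53f/f HCC, 3.47 ± 1.02 in p53LKO HCC and 4.38 ± 0.47 in ICC, and its difference passed only between ICC and p53f/f HCC among the 3 comparisons (1.70, adjusted p = 0.000421 by limma). No family member passed between the HCC groups at those thresholds by limma. Under an adjusted p of 0.05 alone there was also none, and under spike-in scaling 4 were higher.

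Markers of several cell types moved with these values. The summed signal of 9 hepatocyte markers, in multiples of the array's 75th percentile, was 3680 to 6710 in p53f/f HCC, 2960 to 3970 in p53LKO HCC and 946 to 2250 in ICC, and 6 of 9 were lower in ICC than in p53LKO HCC (median −1.66). With the row as a block 1 of 9 passed, at a median of −1.73. Without the ICC of mouse 3733 it was 4 of 9, at a median of −1.02, and 4 of 9 were also lower with quantile normalization, under the 75th percentile of probes above background on all arrays, and with the mouse as a block. Alb was at 7.85 ± 1.18 in ICC and well above background on all 5 arrays, so hepatocyte transcripts were present in every ICC. All 9 biliary markers were tested, and Spp1 (4.73), Krt19 (4.67), Krt7 (2.70) and Epcam were higher in ICC and Cldn7 (−2.52) was lower. The biliary median was 0.67. With the row as a block 3 of 9 were higher, at a median of −0.03, and with the mouse as a block 3 were, at 0.46. Epcam was clearly over background on 5 of 5 ICC, 0 of 5 p53LKO HCC and 1 of 5 p53f/f HCC arrays. The summed biliary signal was 75.1 to 151 in ICC and 6.84 to 32.5 in all HCC.

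Stellate cell and fibroblast markers were higher in ICC for 5 of 7 (median 2.30), among them Col3a1 (2.78), Col1a1 (2.63) and Dcn (2.30), with a summed signal of 366 to 614 in ICC, 57.6 to 177 in p53LKO HCC and 26.6 to 96.9 in p53f/f HCC. Between ICC and p53LKO HCC, 4 of 7 passed with the row or the mouse as a block. With quantile normalization or under the 75th percentile of probes above background on all arrays it was 6. None of the 6 endothelial, 6 macrophage or 6 proliferation markers tested passed in that comparison by limma. With the mouse as a block 1 endothelial and 1 macrophage marker passed as lower, and under the 75th percentile of probes above background on all arrays 1 macrophage marker passed as higher. The summed endothelial signal was 11.2 to 21.7 in ICC and 22.8 to 38.8 in all HCC, with no overlap. Such a sum is led by its brightest probes. By gene the endothelial median between ICC and p53LKO HCC was 0.11, against −0.17 over all genes. Of 6 T and B cell markers Cd3d (2.08) and Ms4a1 (1.81) were higher in ICC and Cd4 (−2.76) was lower, with 1 higher when the row was a block. Their median by gene was 0.28, while their summed signal was 10.5 to 18.7 in ICC and 21.9 to 629 in all HCC. The summed signal of 8 acinar markers was 0.869 to 3.26 in ICC and 5.6 to 19.7 in all HCC. Pancreatic acinar markers, of which 3 of 8 were tested there, gave 2 lower genes, Cela1 (−4.93) and Ctrb1 (−1.28), and 1 with normexp or under the 75th percentile of probes above background on all arrays. The part of cell composition in the values of the 8 factors was not tested.

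**Figure D5:**
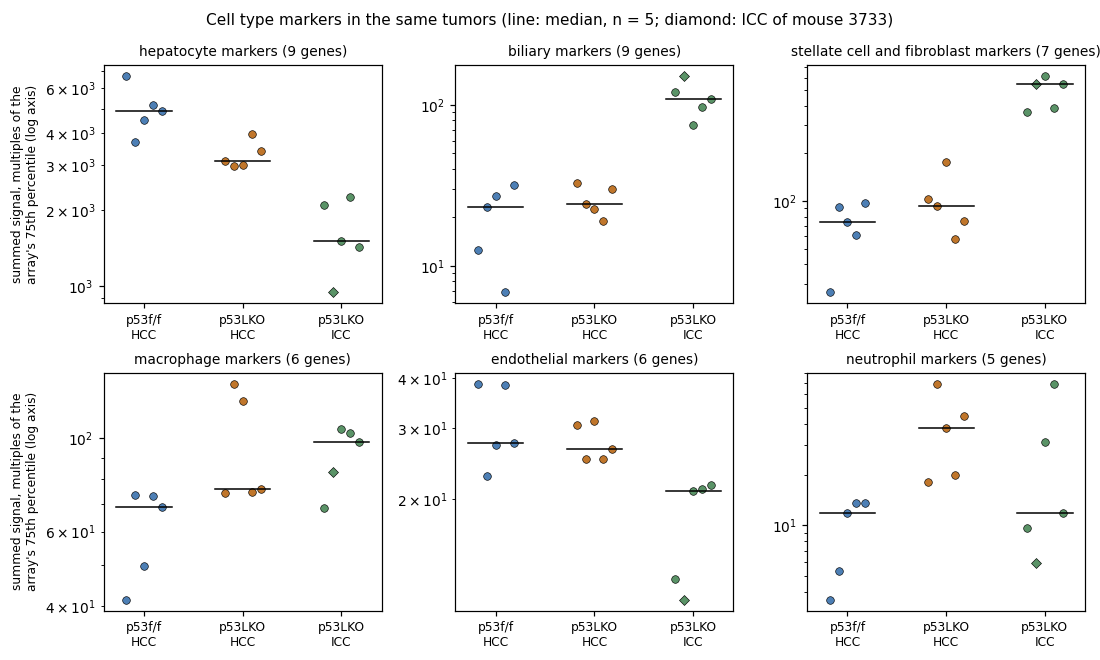
Summed signal of 6 lists of cell type markers on each array (y axis, multiples of the array's 75th percentile, log axis) in the 3 tumor groups (x axis); points are tumors, the line is the median and the diamond is the ICC of mouse 3733. The hepatocyte sum of all 5 ICC (946 to 2250) lies below that of all 10 HCC (2960 to 6710), and the biliary and stellate sums lie above.

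The genes whose levels ran most like each factor over the 15 arrays were looked up among 17785 genes as a description. The points share the 3 groups, so r within the groups, taken on deviations from the group means, stands beside it. Hnf4a ran with Osbpl1a (r = 0.99, 0.93 within groups), Hsd17b13 (0.983, 0.91) and Spp2 (0.98, 0.862). Foxa3 ran with Kng2 (0.959, 0.889), Pid1 (0.959, 0.852) and Itih2 (0.958, 0.863), of which Kng2 encodes a kininogen and Itih2 a secreted hepatocyte protein. Creb3l3 ran with the cytochrome genes Cyp2d34 (0.966, 0.873) and Cyp2d10 (0.966, 0.872), which are near copies of each other, and with Ttc39c (0.965, 0.88).

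For Cebpa the nearest were Pex19 (0.945, 0.83), Zfand2b (0.939, 0.911) and Scrn2 (0.937, 0.684), and for Cebpb Gfod2 (0.94, 0.727), Psmb10, a subunit of the immunoproteasome (0.935, 0.818), and Zfpm1 (0.934, 0.673). Prox1 ran with Llgl2 (0.953, 0.803), Adck3 (0.951, 0.814) and Gbp10 (0.949, 0.73). Foxa2 ran with Nsfl1c (0.916, 0.909), Tmem70 (0.912, 0.883) and Ppp6c (0.906, 0.867), and Foxa1 with Fam208b (0.896, 0.815), Haus6 (0.83, 0.814) and Prickle1 (0.823, 0.731).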

How the data were processed

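Total RNA of 15 tumors had been labelled with Cy3 and hybridised to Agilent 1-colour mouse arrays, 1 array a tumor. The authors deposited scanner output made with Agilent Feature Extraction 10.7.3.1, per the labels, whose processed signal is a background-subtracted intensity for each spot. They also deposited a log2 table, centred separately on the HCC arrays and on the p53LKO arrays, which was used as an alternative for the HCC comparison alone.

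From the intensities, spots of a probe were averaged on the log2 scale without outlier spots, and the 75th percentile of each array was subtracted. A probe was tested where either compared group had 3 or more arrays on which it was well above background. The test was made with limma 3.58.1 in R 4.3.3 on the arrays of both groups, with Benjamini-Hochberg adjustment over all probes. A probe passed at an adjusted p under 0.05 and a change over 2-fold. Exact permutation tests over arrays were two-sided. Each gene is represented by its brightest probe over all arrays. The code was tested on simulated data. The number of arrays limits the precision, and p-values measure the spread between these tumors.

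The text names all members, list genes that passed or are needed to read a member, and the 3 genes with the highest Pearson r to each member. The members and lists were chosen with earlier results of these data known. Lists covered family members, other liver transcription factors, known targets, and markers of hepatocytes, biliary cells, lymphatic and other endothelium, stellate cells and fibroblasts, macrophages, neutrophils, T and B cells, pancreatic acinar cells and proliferation. Some list genes are not reported here and were left out of the lists.

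The replicate numbers do not pair samples, but 4 p53LKO mice gave both tumors, so the mouse was the block of a paired alternative. Deviations from the group means correlated at −0.142 to 0.066 in these 4 pairs and at −0.263 to 0.283 in the 21 other pairs of an HCC and an ICC, over 32607 probes. Alternatives changed the scaling, background correction, filter, test, blocks and arrays.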

Additional observations from a re-analysis of the deposited data

Results flagged for a closer look

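Among 27 groups of 5 arrays (9 probes in 3 groups), 2 held a single outlying tumor by Dixon's test at the 95% level, and chance flags about 1 in 20 groups. Hnf4a read 4.13 in the ICC of mouse 3733, against 5.34 to 5.70 in the other ICC (ratio of gap to range 0.769, critical value 0.71). The difference of Hnf4a between ICC and p53LKO HCC was −1.75 without that tumor. Prox1 read 0.49 in the p53LKO HCC of mouse 3976, against −0.46 to −0.28 in the other p53LKO HCC (ratio 0.809).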

How the results depend on the processing

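The values between the HCC groups depended most on the scaling. With the spike-in probes as reference, 3 of 8 factors passed (Hnf4a 1.01, Foxa2 1.26, Cebpb 1.76), and Foxa1 (0.05), Foxa3 (0.39), Cebpa (0.21), Prox1 (0.55) and Creb3l3 (0.52) turned from negative to positive. That scaling moved the median of all probes from −0.12 to 0.62. No factor passed (0 of 8) with quantile normalization (Cebpb 0.79), the 75th percentile of probes above background on all arrays (0.77), normexp (0.99), the row as a block (0.90), the upper rows only (0.90) or both tumors of mouse 3717 averaged (0.94). Leaving out 1 array gave 0 to 1, with 0 without either tumor of mouse 3717 or the p53LKO HCC of mouse 3976, 5283 or 3733.

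Between ICC and p53LKO HCC, 3 of 8 passed with normexp (Foxa1 0.88 and Prox1 −0.88 did not) and 4 to 5 without 1 array. With the mouse as a replicate block 4 passed, Foxa1 at 0.94 did not, and no other factor's call changed. Prox1 was −0.81 under the percentile of probes above background on all arrays. Between ICC and p53f/f HCC, 2 of 8 passed with spike-in scaling (Foxa1 at 1.08 and Foxa3), where Hnf4a was −1.01 (adjusted p = 0.0568 by limma), Creb3l3 −0.97, Cebpa −0.65 and Prox1 −0.62, and 5 passed without any 1 array. Prox1 was −0.98 with normexp and Creb3l3 −1.32 with the slide as a block, and neither passed.

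Over all probes, the calls between the HCC groups were 1314 higher and 5774 lower, against 9835 and 2306 with spike-in scaling, 1543 and 3720 with quantile normalization, and 630 and 7944 with the percentile of probes above background on all arrays. That percentile gave 6242 higher and 2251 lower between ICC and p53LKO HCC, against 4225 and 4390. Spike-in scaling gave 7348 and 926 between ICC and p53f/f HCC, against 2652 and 4285. Normexp called 2892, 5614 and 3750 probes in the 3 comparisons, and a filter on every array 1850 (1003 higher, 847 lower), 4333 (1467, 2866) and 3754 (1896, 1858), against 7088, 8615 and 6937. Without a filter the last comparison had 19132 calls (14655 higher, 4477 lower) and with the slide as a block 3700. The causes were not tested. List counts under other scalings, blocks and arrays were chosen after seeing the data. The deposited log2 table was not run between ICC and HCC, and a row block could not be fitted between ICC and p53f/f HCC.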
